A study of Mus musculus with 20 samples.

Results

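The tissue macrophage genes described here are C1qa, C1qb, C1qc, Tyrobp, Laptm5, Ctss, Lyz2 and Ptprc. They are 8 of 8251 genes that the platform annotation names by 1 symbol. Every probe set annotated to them was taken, dim ones included, which made 13 of the 12422 probe sets tested. A further probe set carries both Lyz1 and Lyz2 and is given apart, because it cannot be assigned to either gene. Transcripts were measured on Affymetrix MG-U74Av2 arrays in total RNA of whole fetal mouse hearts collected on gestation day 17.5. Pregnant mice had received corn oil (8 control arrays) or TCDD at 1.5, 3 or 6 µg/kg (4 arrays each) by oral gavage on day 14.5. TCDD is a dioxin that binds the aryl hydrocarbon receptor. The label of 1 array at 1.5 µg/kg writes the treatment day in another form, which was not used. The labels give no strain or litter, nor whether single hearts or pools were hybridised, so every p below measures the spread between these arrays. Their numbering of controls runs from 1 to 8, while the design text of the series speaks of 4 arrays a group, so controls 1 to 4 and 5 to 8 are also given apart.

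Resident macrophages settle in the heart before birth, clear dying cells and debris, and digest what they take up in lysosomes. C1q, the recognition molecule of the classical complement pathway, is built from the A, B and C chains encoded by C1qa, C1qb and C1qc, and tissue macrophages are a main source of it. Tyrobp encodes an adaptor that couples myeloid surface receptors to the kinase Syk. Laptm5 encodes a lysosomal membrane protein of blood-forming cells, Ctss the lysosomal protease cathepsin S, and Lyz2 the lysozyme of macrophages and granulocytes. Ptprc encodes CD45, a phosphatase on the surface of nearly all white blood cells. The group is therefore not particular to macrophages: Lyz2, Tyrobp, Laptm5 and Ptprc are also used by other leukocytes. In RNA of whole hearts, more cells of a type and more RNA per cell cannot be told apart.

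The promoters of C1qb, C1qc and Ctss are shown because C1qb and C1qc lie side by side on chromosome 4 and because Ctss had the smallest p of any member at 6 µg/kg. No other gene of the RefSeq table lies between C1qb and C1qc, and none lies between C1qc and C1qa. The sequences are those of RefSeq on assembly GRCm38.p6, from 250 bases before to 50 bases after the annotated start, written 5′ to 3′ on the strand of the gene. Capitals mark GAGGAA on either strand (TTCCTC when it lies on the opposite strand), the core of sites bound by the myeloid regulator PU.1. The C1qb window is chr4:136886151-136886450 on the minus strand, the C1qc window chr4:136892865-136893164 on the minus strand and the Ctss window chr3:95526536-95526835 on the plus strand.
C1qb promoter: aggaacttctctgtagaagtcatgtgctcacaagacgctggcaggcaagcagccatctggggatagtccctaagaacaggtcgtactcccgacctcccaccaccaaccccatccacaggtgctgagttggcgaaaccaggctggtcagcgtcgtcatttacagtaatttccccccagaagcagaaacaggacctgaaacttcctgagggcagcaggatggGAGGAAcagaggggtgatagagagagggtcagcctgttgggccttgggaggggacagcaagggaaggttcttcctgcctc
C1qc promoter: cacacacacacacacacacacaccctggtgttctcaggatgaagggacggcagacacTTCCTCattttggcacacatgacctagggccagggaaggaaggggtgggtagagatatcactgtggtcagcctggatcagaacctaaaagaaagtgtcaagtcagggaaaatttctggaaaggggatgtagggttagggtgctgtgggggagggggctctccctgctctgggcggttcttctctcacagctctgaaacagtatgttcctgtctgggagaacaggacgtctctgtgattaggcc
Ctss promoter: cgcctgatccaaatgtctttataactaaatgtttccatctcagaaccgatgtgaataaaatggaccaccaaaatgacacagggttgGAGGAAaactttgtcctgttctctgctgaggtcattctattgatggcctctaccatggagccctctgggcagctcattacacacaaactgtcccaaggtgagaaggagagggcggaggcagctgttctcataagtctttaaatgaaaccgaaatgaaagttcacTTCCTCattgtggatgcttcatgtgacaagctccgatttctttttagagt
The table held 7 windows of 6 member genes (C1qb, C1qc, Ctss, Laptm5, Lyz2 and Ptprc). GAGGAA was found on either strand in 5 of the 7 windows and in 28.3% of all 32851 windows of the same length. The longer GAGGAAGT, which contains GAGGAA, was found in 2 of the 7, those of C1qc and Ctss, and in 3.2% of all windows. In C1qc it began 195 bases before the start, and in Ctss it spanned the start itself. GCGTG, the core at which the aryl hydrocarbon receptor binds DNA, was found on neither strand in any of the 7 windows and in 32.4% of all windows. These matches describe letters and not binding.

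C1qa, C1qc, Ctss, Tyrobp, both probe sets of Laptm5 and the brighter probe sets of C1qb and Lyz2 had higher means than the controls at all 3 doses. For C1qa the log2 differences of 0.31, 0.39 and 0.44 exceeded the spread between controls (SD 0.15, n = 8), as did that of 0.47 for Ctss at 6 µg/kg (SD 0.15, n = 8). No member passed the adjusted threshold at any dose. Values were taken as log2(signal + 32), and differences are on that scale, which understates the change of dim genes. All 12422 probe sets were fitted together in limma, with Benjamini-Hochberg adjustment and a threshold of 0.05. The 3 doses share the same 8 controls, so the doses are not separate evidence.

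**Figure D1:**
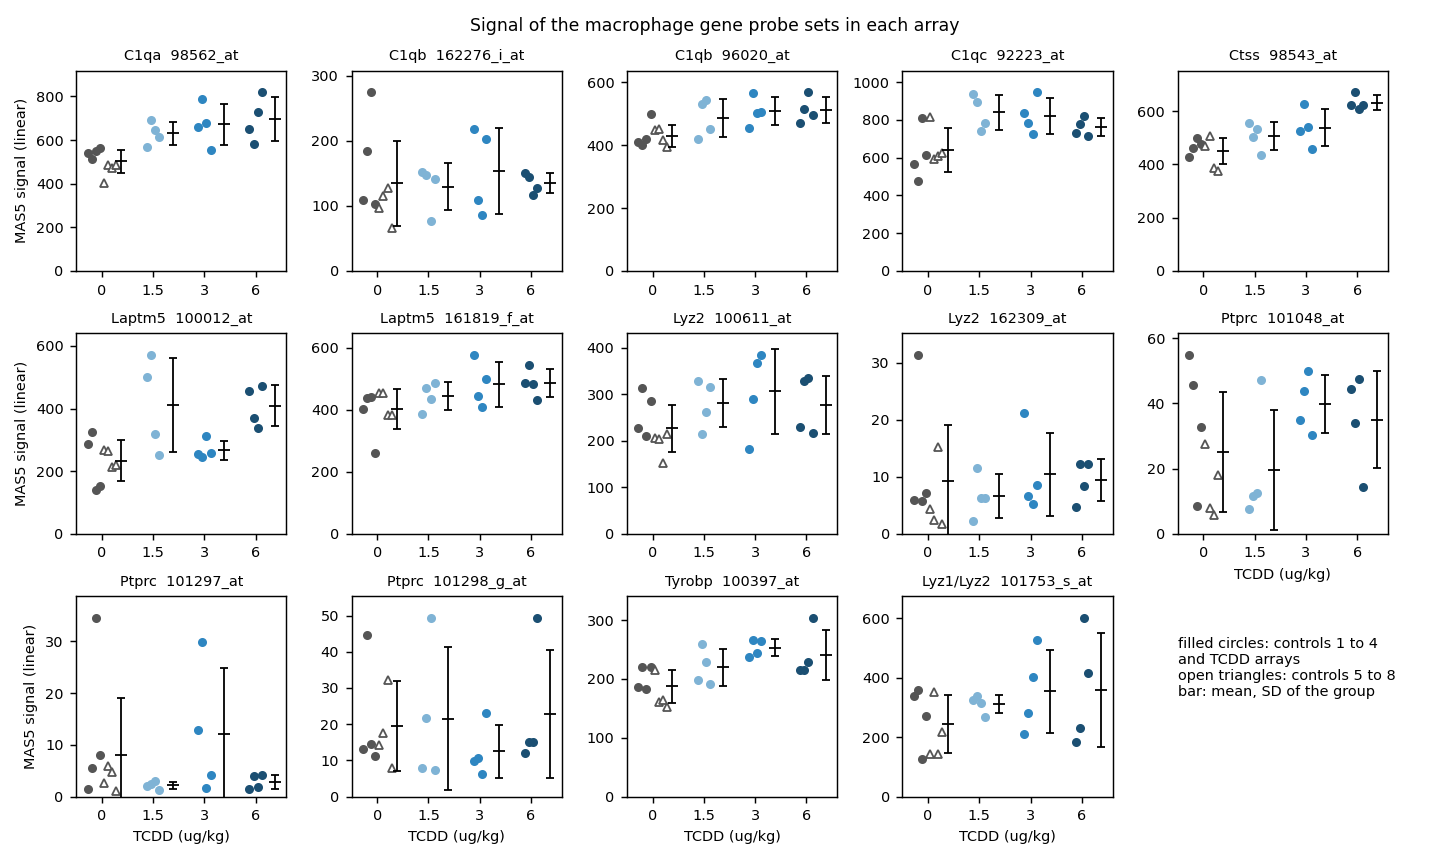
Linear MAS5 signal of each probe set in each of the 20 arrays against the TCDD dose; filled circles are controls 1 to 4 and TCDD arrays, open triangles are controls 5 to 8, and the bar is the group mean with its SD. All 4 C1qa values at 1.5 and at 6 µg/kg and all 4 Ctss values at 6 µg/kg sit above every control, whereas the Ptprc probe sets reach at most 54.9.

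C1qa, the A chain of C1q (probe set 98562_at), gave control signals between 402.5 and 563 with a median of 499.7. The arrays at 1.5 µg/kg read 568, 691, 646 and 615, those at 3 µg/kg 659, 789, 680 and 556, and those at 6 µg/kg 649, 583.5, 729 and 819.5. Every array at 1.5 and at 6 µg/kg lay above every control, and 3 of 4 did at 3 µg/kg. Control arrays averaged 502 ± 52.6 (SD, n = 8) and TCDD arrays 630 ± 51.6 (SD, n = 4), 671 ± 95.5 (SD, n = 4) and 695 ± 102 (SD, n = 4) from the low to the high dose. Its log2 differences of 0.31, 0.39 and 0.44 had a standard error of 0.11. The limma adjusted p was 0.295, 0.555 and 0.169.

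C1qc, the C chain (92223_at), had the largest difference of the C1q genes at 1.5 µg/kg, yet its groups overlapped. Controls lay between 477 and 816 with a median of 613. The arrays read 937, 896, 742 and 785 at 1.5 µg/kg, 837, 783, 723 and 948 at 3 µg/kg, and 730.5, 781, 819 and 713.5 at 6 µg/kg. Of 4 arrays, 2, 2 and 1 exceeded every control, because controls 3 and 5 read 809 and 816. The log2 differences were 0.39, 0.36 and 0.26 with a standard error of 0.12, and the limma adjusted p was 0.227, 0.859 and 0.536.

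C1qb, the B chain, has 2 probe sets that differed in behaviour. The brighter, 96020_at, read 393 to 501 in controls (median 418), then 420.5, 532, 543.5 and 451 at 1.5 µg/kg, 456, 566, 503 and 507 at 3 µg/kg, and 472, 516, 569 and 496 at 6 µg/kg. Of 4 arrays, 2, 3 and 2 exceeded every control, and the log2 differences were 0.16, 0.22 and 0.24 with a standard error of 0.09. The dimmer, 162276_i_at, read between 66.1 and 275 in controls, and none of its 12 TCDD values left that range. Its differences of 0.01, 0.17 and 0.08 had a standard error of 0.25, and over the 20 arrays its log2 signal correlated with that of the brighter probe set at r = −0.17. The C1qb estimate therefore differs with the probe set taken.

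Tyrobp, the adaptor (100397_at), lay between 151.5 and 221 in controls (median 185). The arrays read 197.5, 260.0, 229 and 191 at 1.5 µg/kg, 237, 266, 244.5 and 265 at 3 µg/kg, and 215, 216, 229 and 304 at 6 µg/kg. All 4 arrays at 3 µg/kg exceeded every control, and 2 of 4 did at each of the other doses. The log2 differences were 0.20, 0.38 and 0.31 with a standard error of 0.13, and the limma adjusted p was 0.643, 0.872 and 0.513.

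Ctss, the protease that also trims the invariant chain encoded by Cd74 in antigen-presenting cells (98543_at), gave the smallest p of any member at 6 µg/kg. Controls lay between 376 and 506 with a median of 464. The arrays read 557, 501, 532 and 435 at 1.5 µg/kg, 524, 626, 541 and 458 at 3 µg/kg, and 624, 671, 608 and 624 at 6 µg/kg. The 6 µg/kg arrays lay close together and all above the controls, whereas 2 and 3 of 4 did at 1.5 and 3 µg/kg. Control arrays averaged 450 ± 49.1 (SD, n = 8), and those at 6 µg/kg 632 ± 27.2 (SD, n = 4). The log2 differences were 0.16, 0.24 and 0.47 with a standard error of 0.10. At 6 µg/kg the unadjusted p was 9.48e-05 and the limma adjusted p 0.10, with a range of 0.065 to 0.303 over the alternatives.

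Laptm5 also has 2 probe sets. The first, 100012_at, read 139 to 324 in controls (median 243), with controls 3 and 4 lowest at 139 and 154. It read 501, 571.5, 320 and 251 at 1.5 µg/kg, 255, 245, 312 and 257 at 3 µg/kg, and 457, 371, 339 and 471.5 at 6 µg/kg. All 4 arrays at 6 µg/kg lay above every control, 2 did at 1.5 µg/kg and none at 3 µg/kg, so the order of the groups did not follow dose. Its log2 differences of 0.71, 0.20 and 0.76 (standard error 0.20) were the largest of any member at the low and the high dose, with limma adjusted p of 0.201, 0.954 and 0.221. Between 6 and 3 µg/kg it differed by 0.56 (95% interval 0.08 to 1.04, unadjusted p 0.0247, limma adjusted p 0.375). The second probe set, 161819_f_at, read 261 to 454 in controls and 433 to 545 at 6 µg/kg, where 3 of 4 arrays exceeded every control. It gave smaller differences of 0.15, 0.25 and 0.27 (standard error 0.12), and the 2 probe sets correlated at r = 0.36 over the 20 arrays.

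Lyz2, the lysozyme gene, overlapped between groups at every dose. Its probe set 100611_at read 153 to 313.5 in controls (median 213), then 329, 215.5, 262 and 316 at 1.5 µg/kg, 183, 290, 367 and 384.5 at 3 µg/kg, and 229, 328, 335 and 217 at 6 µg/kg. Of 4 arrays, 2 exceeded every control at each dose. The log2 differences were 0.28, 0.36 and 0.26 with a standard error of 0.18, and the limma adjusted p was 0.643, 0.931 and 0.708. The probe set shared with Lyz1 (101753_s_at) read from 127 to 358.5 in controls and from 182 to 603 at 6 µg/kg, with differences of 0.40, 0.50 and 0.45. It correlated with 100611_at at r = 0.63 over the 20 arrays, and the share of each gene in its signal is unknown.

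The 3 Ptprc probe sets (101048_at, 101297_at and 101298_g_at) and the second Lyz2 probe set (162309_at) were dim in all groups, with group means between 2.2 and 39.8. These 4 were also the members that stayed below a brightness filter at the 40th percentile of each array, which the other 9 passed. Their log2 differences lay between −0.19 and 0.38 with standard errors of 0.14 to 0.23, and the sign varied with probe set and dose. Ptprc 101048_at, for example, differed by −0.14, 0.38 and 0.26, and its control values already ran from 5.7 to 54.9. The 3 Ptprc probe sets correlated with each other at r = −0.34 to −0.09. They gave no common level or direction for the CD45 transcript.

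**Figure D2:**
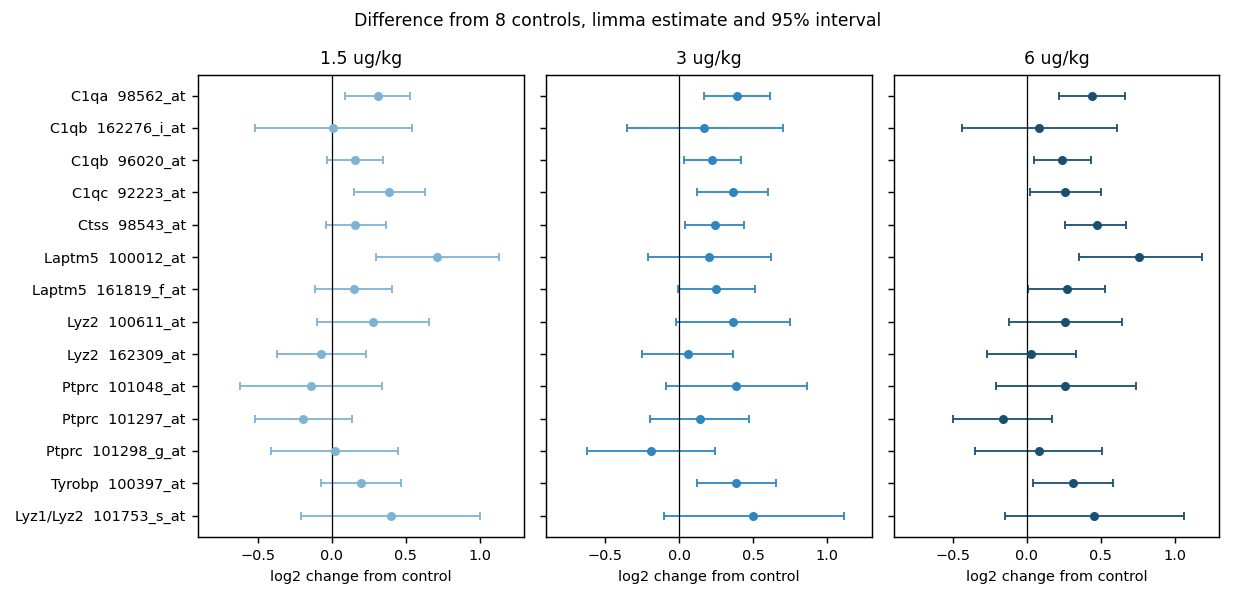
Difference from the 8 controls in log2(signal + 32) for each probe set at each dose, with the limma estimate as a point and its 95% interval as a bar. Intervals of C1qa and C1qc lie above 0 at all 3 doses and that of Laptm5 100012_at at 1.5 and 6 µg/kg, while those of the 4 dim probe sets all cross 0; none passed after adjustment.

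Counted over the 13 probe sets, 0 passed an adjusted p of 0.05 in limma at any dose; of all probe sets 0.0644%, 0.0161% and 0.0403% did at 1.5, 3 and 6 µg/kg. At an unadjusted p under 0.05, 3 members were higher at 1.5 µg/kg (C1qa, C1qc and Laptm5 100012_at), beside 5.92% of all probe sets. At 3 µg/kg 5 of 13 were higher (C1qa, C1qb 96020_at, C1qc, Ctss and Tyrobp), beside 2.74%, and at 6 µg/kg those 5 and both Laptm5 probe sets made 7 of 13, beside 5.56%. Members lower at that p numbered 0 at each dose, beside 4.31%, 2.62% and 3.31% of all. These counts come before adjustment and the members overlap in the arrays they use, so they are a description.

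The counts moved with the choice of arrays. Without array 2 of 3 µg/kg, 3 members were higher at 3 µg/kg, and without array 3 of 6 µg/kg, 4 were higher at 6 µg/kg. Against controls 1 to 4 alone the counts were 2, 3 and 5, and against controls 5 to 8 alone they were 4, 7 and 7. Some arrays stood apart by the ratio of the 3′ to the middle β-actin control probe sets, a sign of RNA quality: array 4 of 6 µg/kg and controls 1, 2 and 6, whose log2 ratios lay between 0.896 and 1.34, while all others lay between 0.351 and 0.61. Without these 4 arrays the counts were 3, 7 and 5.

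Direction was more uniform than the size of the differences. The log2 difference was above 0 in 10, 12 and 12 of the 13 probe sets, beside 51.3%, 46.9% and 55.4% of all probe sets. The median over the members was 0.16, 0.24 and 0.26, and over all probe sets 0.01, −0.01 and 0.02. Every array of the dose lay above every control for 1 member at 1.5 µg/kg (C1qa; 0.765% of all probe sets), 1 at 3 µg/kg (Tyrobp; 0.258%) and 3 at 6 µg/kg (C1qa, Ctss and Laptm5 100012_at; 0.596%). All 12 TCDD arrays lay above all 8 controls for 0 members and for 0.0242% of all probe sets.

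When the 3 doses were averaged against the controls, 8 of 13 members were higher at an unadjusted p under 0.05, beside 4.57% of all probe sets, and 0 passed the limma test after adjustment (0.0322% of all). C1qa had the smallest p, with a log2 difference of 0.38 ± 0.08 (SE) and an adjusted p of 0.129. Laptm5 100012_at differed by 0.56 ± 0.15 (SE; adjusted p 0.332), C1qc by 0.34 ± 0.09 (0.264), Tyrobp by 0.30 ± 0.10 (0.482), Ctss by 0.29 ± 0.07 (0.255) and C1qb 96020_at by 0.21 ± 0.07 (0.494). As folds on the log2(signal + 32) scale these 6 differences run from 1.16 to 1.47.

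Among the doses themselves Ctss was the member that followed dose most closely. Its log2 signal differed by 0.31 between 6 and 1.5 µg/kg (95% interval 0.07 to 0.54, unadjusted p 0.0131, limma adjusted p 0.239) and by 0.23 between 6 and 3 µg/kg (−0.01 to 0.46; adjusted p 0.454). Over all 20 arrays its slope was 0.08 log2 units per µg/kg with a limma adjusted p of 0.0723, and over the 12 TCDD arrays it was 0.07 with 0.169. Under 2 alternatives the slope over all arrays passed, with an adjusted p of 0.0494 against controls 1 to 4 alone and 0.0469 with a stricter brightness filter. Against controls 5 to 8 alone it was 0.45, the highest of the alternatives. C1qa, by contrast, differed by 0.13 between 6 and 1.5 µg/kg (−0.12 to 0.38), and C1qc by −0.13 (−0.41 to 0.14). Members past the adjusted threshold numbered 0 in each dose contrast and in both slopes, beside 0.0725% of all probe sets between 6 and 1.5 µg/kg, 0.0% between 6 and 3 µg/kg, 0.0161% for the slope over all arrays and 1.14% for the slope over TCDD arrays. At an unadjusted p under 0.05 the counts of higher members were 1, 1, 6 and 1 of 13, beside 6.67%, 6.77%, 4.53% and 7.83% of all probe sets.

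The score of the group, the mean over the 8 genes after each gene's own mean log2 signal was subtracted, gives 1 value per array. Controls 1 to 8 scored −0.15, 0.01, −0.05, −0.14, −0.13, −0.19, −0.25 and −0.32. The arrays scored 0.04, 0.14, 0.02 and −0.02 at 1.5 µg/kg, 0.12, 0.16, 0.05 and 0.13 at 3 µg/kg, and 0.09, 0.14, 0.15 and 0.19 at 6 µg/kg. All 4 arrays at 3 and at 6 µg/kg exceeded every control, and 3 of 4 did at 1.5 µg/kg, where array 4 lay below control 2. The score differed from the control mean by 0.20, 0.27 and 0.29, set against an SD of 0.10 among the controls. With the brightest probe set of each gene in place of their mean the differences were 0.19, 0.33 and 0.31, and all 12 TCDD arrays exceeded all controls. No p is given for a score over members chosen with results known.

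**Figure D3:**
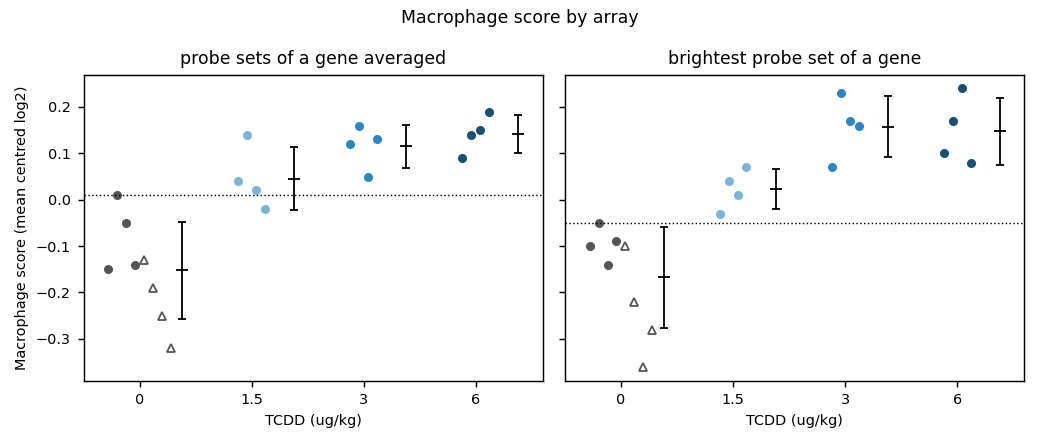
Macrophage score (mean centred log2 signal over 8 genes) of each array by dose, with the probe sets of a gene averaged on the left and with its brightest probe set on the right; filled circles are controls 1 to 4 and TCDD arrays, open triangles controls 5 to 8, bars mean and SD, and the dotted line the highest control. On the left only 1 TCDD array, at 1.5 µg/kg, lies below that line, and controls 7 and 8 are the lowest of all arrays.

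Part of the score difference depends on which controls are taken. Controls 1 to 4 scored −0.08 ± 0.08 (SD, n = 4) and controls 5 to 8 −0.22 ± 0.08 (SD, n = 4), a difference of 0.14. Against controls 1 to 4 the score differed by 0.13, 0.20 and 0.23 from the low to the high dose, and against controls 5 to 8 by 0.27, 0.33 and 0.36. Of the 13 members 10 were higher in controls 1 to 4 than in 5 to 8, beside 51.3% of all probe sets. In limma 0 of them passed an adjusted p of 0.05, beside 0.644% of all, and 0 were higher or lower at an unadjusted p under 0.05, beside 6.27% and 5.73% of all. C1qa, for instance, read 543 ± 21.1 (SD, n = 4) in controls 1 to 4 and 461 ± 39.4 (SD, n = 4) in controls 5 to 8, a log2 difference of 0.22 (−0.01 to 0.46). The labels do not say what separates these controls.

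Across all 20 arrays the members varied together only in part. Among the 9 brighter probe sets, the 34 pairs from different genes had correlations of −0.04 to 0.71 with a median of 0.36. The highest were C1qa with Tyrobp (0.71), C1qb 96020_at with Tyrobp (0.70), C1qa with C1qb 96020_at (0.69) and C1qa with Ctss (0.68). C1qa and C1qc, whose products join in the same molecule, correlated at 0.34. After the mean of each group was subtracted, the 34 correlations ran from −0.40 to 0.44 with a median of 0.06, and C1qa with C1qc gave −0.37. The arrays share groups, scaling and RNA quality, so these values describe 20 arrays and carry no p.

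**Figure D4:**
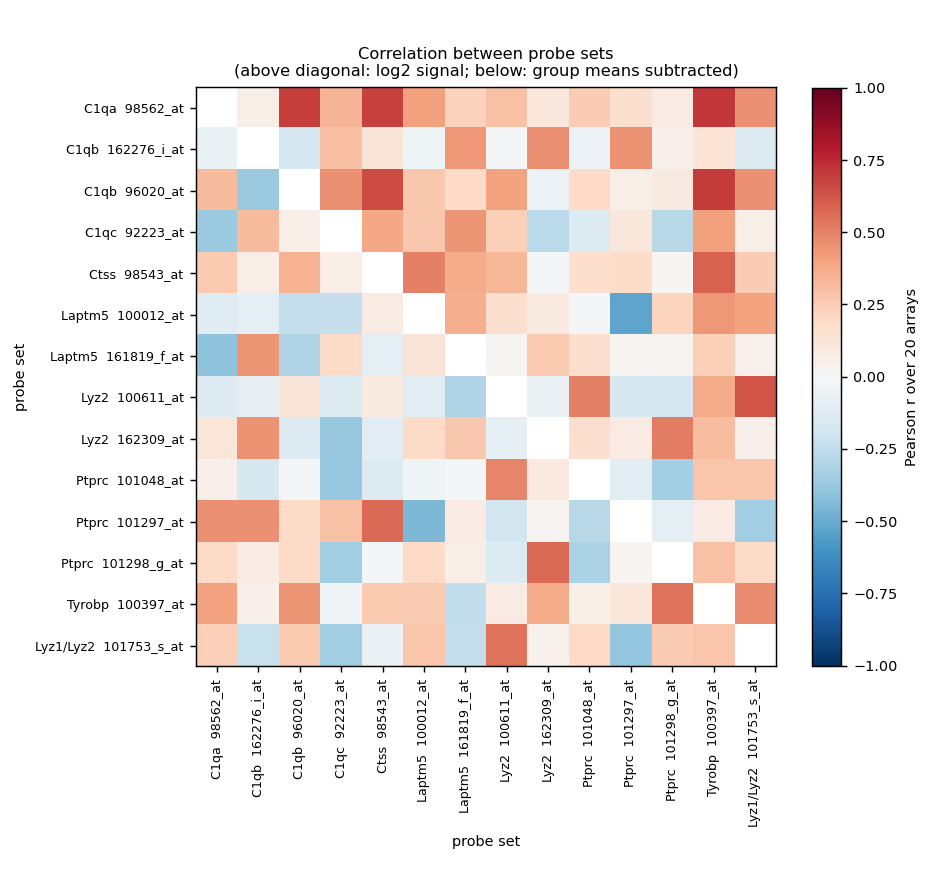
Pearson correlation between the log2 signals of each pair of probe sets over 20 arrays, above the diagonal as measured and below it after subtraction of each group's mean; red is positive and blue negative. The red block of C1qa, C1qb 96020_at, Ctss and Tyrobp above the diagonal is paler below it.

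The genes whose signals most resembled the score over 20 arrays were taken from 7313 probe sets of other genes above the brightness filter. They were Cyp1a1 (r = 0.85) and Cyp1b1 (0.78), cytochrome P450 genes that the aryl hydrocarbon receptor switches on, Cd74, the invariant chain of MHC class II (0.84), the chemokine gene Ccl9 (0.82), Plac8 (0.74) and the galectin gene Lgals3 (0.74). With group means subtracted these correlations were 0.24, −0.33, 0.39, 0.62, 0.20 and 0.21 in the same order. Ranked after that subtraction, the leading 6 were Lrrc59 (0.83), Ormdl1, Cenpb and Xrcc1 (each 0.80), Wdhd1 and Abhd16a (each 0.79), and the lowest limma adjusted p among these 6 for the mean of the doses was 0.85. Cd74 itself differed from controls by 0.73, 0.61 and 0.92 and rose past the threshold at 6 µg/kg (limma adjusted p 0.00841; 0.055 and 0.38 at the lower doses).

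Other macrophage markers were measured beside the members. Of 25 listed surface and regulatory genes 21 had probe sets, 26 in all, of which 18, 15 and 22 lay above controls at 1.5, 3 and 6 µg/kg. Of all probe sets 51.3%, 46.9% and 55.4% lay above controls. In limma 0 of 26 passed after adjustment. At an unadjusted p under 0.05, 2, 1 and 3 of 26 were higher, beside 5.92%, 2.74% and 5.56% of all probe sets. The list's score differed from controls by 0.10, 0.06 and 0.15, with 2, 1 and 4 of 4 arrays above every control. Its median probe set differed by 0.09, 0.02 and 0.14. Csf1r, the receptor that macrophages need to survive (104354_at), had mean signals of 331, 391, 372.5 and 427 from control to the high dose, with log2 differences of 0.22, 0.16 and 0.33. Mpeg1 (99071_at), which encodes the pore-forming protein perforin-2, gave 224, 280, 268 and 275. Lgals3 gave 62.1, 102, 112 and 122, with differences of 0.50, 0.57 and 0.71 (limma adjusted p 0.323, 0.859 and 0.206). Pf4 gave 45.2, 55.0, 32.9 and 57.2, with differences of 0.20, −0.29 and 0.23.

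Adgre1, Mrc1, Cd68, Cx3cr1 and Stab1, further macrophage markers of the list, were chosen after their values were seen. They were measured weakly or showed small differences, whereas Cd14 of the same list was brighter than most of them and higher at each dose. Adgre1, which encodes F4/80, gave 50.9 in controls and 56.2, 41.6 and 83.8 at the 3 doses (103507_at), and 22.0, 20.9, 16.8 and 26.0 in its other probe set (161377_at). In controls these lay at percentiles 25.1 and 16.5 of the signals of a control array (median over controls). Mrc1, the mannose receptor, gave 136 in controls and 145, 151 and 138 at the 3 doses. Cd68 gave 172, 188, 199 and 175 (103016_s_at), and 6.4, 4.0, 3.0 and 10.9 in its other probe set (162173_i_at). Cx3cr1 gave 282, 253, 280 and 296, and the scavenger receptor gene Stab1 gave 724, 722, 728 and 671. Cd14 gave 435, 542.5, 508 and 518. On the log2 scale the averaged doses differed from controls by 0.18 and −0.02 for the probe sets of Adgre1 and 0.06 for Mrc1. They differed by 0.11 and −0.03 for those of Cd68, 0.00 for Cx3cr1, −0.03 for Stab1 and 0.25 for Cd14. Mean signals of Mrc1, Cd68 103016_s_at and Cd14, as of Csf1r 104354_at and Mpeg1 99071_at, lay above the control mean at each dose. No probe set of the list passed the adjusted threshold at any dose.

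Genes that work with the members were counted in the same way. Of 11 probe sets for other parts of the C1 complex and classical pathway, 8, 7 and 10 lay above controls, with 0 past adjustment in limma. At an unadjusted p under 0.05, 1, 2 and 1 of the 11 were higher and 1, 0 and 1 lower. C1ra, the protease that C1q activates, differed by 0.25, 0.47 and 0.48 (standard error 0.15). C1qbp of the same list differed by −0.53, −0.12 and 0.33 (standard error 0.25). Among 16 probe sets of Fc receptors and adaptor signalling 10, 8 and 13 lay above controls, with 0 past adjustment and 1, 0 and 2 higher at an unadjusted p under 0.05. Syk, the kinase downstream of Tyrobp, differed by 0.31, 0.06 and 0.12 (limma adjusted p 0.262, 0.975 and 0.741). Lysosomal genes had medians near 0: the median difference over 22 probe sets of other proteases and inhibitors was −0.03, 0.03 and 0.05, and over 19 of membrane proteins and enzymes 0.00, 0.02 and −0.02. The abundant inhibitor Cst3, cystatin C, differed by −0.33, −0.14 and 0.06. In both lysosomal lists 0 probe sets passed after adjustment, and at an unadjusted p under 0.05 0, 0 and 1 of the 22 were higher and 2, 0 and 1 lower. Of the 19 membrane proteins and enzymes 1, 4 and 2 were higher and 1, 0 and 0 lower by the same rule. Of all probe sets 5.92%, 2.74% and 5.56% were higher and 4.31%, 2.62% and 3.31% lower. Those above controls without regard to p made up 51.3%, 46.9% and 55.4% of all.

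Markers of other cells were counted in the same way. Of these lists only the lung epithelial and erythroid scores were fitted as covariates. The part of other cells in the macrophage values was not tested. Of all probe sets 51.3%, 46.9% and 55.4% lay above controls at 1.5, 3 and 6 µg/kg. At an unadjusted p under 0.05 in limma, 5.92%, 2.74% and 5.56% of all were higher. Of 23 pan-leukocyte probe sets 17, 18 and 20 lay above controls (0 past adjustment in limma; 1, 2 and 3 higher at an unadjusted p under 0.05), and their score ran from −0.24 to 0.02 in controls, −0.10 to 0.12 at 1.5 µg/kg, −0.04 to 0.18 at 3 µg/kg and −0.06 to 0.22 at 6 µg/kg. Of 18 neutrophil probe sets 15, 9 and 16 lay above (0 past adjustment; 2, 3 and 5 at an unadjusted p under 0.05), and that score ran from −0.30 to 0.00 in controls, −0.07 to 0.24 at 1.5 µg/kg, −0.12 to 0.26 at 3 µg/kg and 0.04 to 0.31 at 6 µg/kg. By this score the TCDD arrays overlapped the controls at 1.5 and 3 µg/kg and not at 6 µg/kg. The neutrophil genes with the smallest joint p over the doses in limma were Plac8, S100a8, S100a9 and Mmp9. At 6 µg/kg these genes differed by 0.79, 0.79, 0.89 and 0.38 (limma adjusted p 0.0611, 0.113, 0.206 and 0.279). Of the 18 neutrophil probe sets 3, 9 and 2 lay below controls. Among pan-leukocyte genes Ncf4 differed by 0.49, 0.53 and 0.98 and Ikzf1 by −0.40, −0.02 and 0.37. Of 10 MHC class II probe sets 10, 9 and 9 lay above, and 0, 0 and 1 (Cd74) passed in limma. At an unadjusted p under 0.05, 3, 2 and 4 were higher and 0, 0 and 1 lower. H2-DMa 93092_at differed by 0.21, −0.14 and −0.81 (limma adjusted p 0.824, 0.98 and 0.28). The MHC class II score ran from −0.38 to −0.01 in controls and 0.13 to 0.27 at 1.5 µg/kg. It ran from −0.06 to 0.28 at 3 µg/kg and 0.08 to 0.26 at 6 µg/kg. Of 18 lymphocyte probe sets 8, 6 and 12 lay above, with scores of −0.23 to 0.31 in controls and −0.32 to 0.20 over the 3 doses.

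Of the mast cell genes, the chymase gene Cma1 differed by −0.89, −0.80 and −1.09 and fell past the threshold at 1.5 and 6 µg/kg (limma adjusted p 0.0411 and 0.00647; 0.172 at 3 µg/kg). Of the 16 mast cell probe sets 12, 12 and 9 lay below controls, with medians of −0.11, −0.14 and −0.03, and Cma1 was the one that passed. The other 4, 4 and 7 lay above controls, beside 51.3%, 46.9% and 55.4% of all probe sets. At an unadjusted p under 0.05 in limma, 3, 3 and 2 of the 16 were lower, beside 4.31%, 2.62% and 3.31% of all, and 0 were higher. Of 17 fibroblast and epicardium probe sets 14, 15 and 14 lay above controls, beside 51.3%, 46.9% and 55.4% of all probe sets. In limma 0 of the 17 passed after adjustment. At an unadjusted p under 0.05, 4, 5 and 4 were higher, beside 5.92%, 2.74% and 5.56% of all, and 0 were lower. The score of this list exceeded the control mean by 0.13, 0.15 and 0.09, with 3, 3 and 1 of 4 arrays above every control. Tcf21, a transcription factor of epicardium and fibroblasts, had 4 of 4 arrays above every control at 1.5 and 3 µg/kg. At those doses 0.765% and 0.258% of all probe sets did so. At 6 µg/kg 2 of its 4 arrays exceeded every control. The log2 differences of Tcf21 were 0.21, 0.20 and 0.08 (limma adjusted p 0.295, 0.872 and 0.758). The endothelial score differed by −0.04, −0.06 and 0.02.

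Signals of tissues next to the heart varied within groups: the lung epithelial score ran from −1.05 to 0.48 in controls and from −0.54 to 0.71, −0.70 to 0.93 and −0.67 to 0.58 at the 3 doses, and the erythroid score from −0.37 to 0.45 in controls and −0.21 to 0.36 over the doses. The lung score exceeded the control mean by 0.36, 0.66 and 0.16, set against an SD of 0.55 among the controls. Of 4 arrays 1, 3 and 1 had a lung score above every control. Of the 8 lung probe sets 7, 7 and 4 lay above controls, beside 51.3%, 46.9% and 55.4% of all probe sets. The liver plasma protein score ran from −0.76 to 0.47 in controls and exceeded the control mean by 0.33, 0.25 and 0.29, with 1, 0 and 1 of 4 arrays above every control. It ran from −0.76 to −0.38 in controls 1 to 4 and from −0.20 to 0.47 in controls 5 to 8. Of the 12 liver probe sets 10 were lower in controls 1 to 4 than in 5 to 8. In limma 7 were so at an unadjusted p under 0.05, beside 5.73% of all probe sets. A link of this difference to the macrophage score was not tested. With the lung epithelial score as a covariate in limma, 3, 5 and 7 members were higher at an unadjusted p under 0.05, and with the erythroid score 4, 5 and 7. For the mean of the doses the counts were 7 and 8, beside 8 without a covariate. Leukocyte, neutrophil and liver scores were not fitted as covariates. The heart's own markers were bright (Myh6 mean signal 15500 in controls), and the cardiomyocyte list had medians of −0.02, −0.09 and 0.09.

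**Figure D5:**
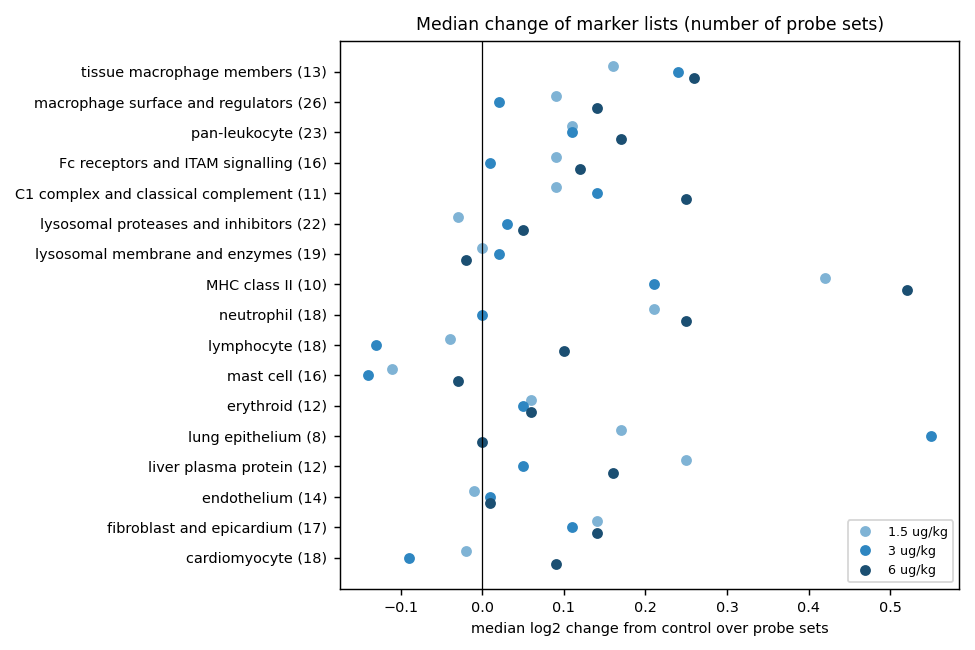
Median log2 difference from controls over the probe sets of each marker list, 1 point per dose, with the number of probe sets in parentheses; the line marks 0. The tissue macrophage members have medians of 0.16, 0.24 and 0.26, the MHC class II list 0.42, 0.21 and 0.52, and the 2 lysosomal lists lie between −0.03 and 0.05.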

How the data were processed

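For each of 20 arrays the authors deposited a MAS5 signal per probe set, which is a linear intensity; MAS5 is named in the submitters' processing notes and its version and the array scaling target are not given in the sources used here. A 2% trimmed mean of 500.28 to 500.34 in every array shows that the deposited values had been scaled alike. The table holds 12488 probe sets; 66 AFFX controls were left out. Each array was rescaled so that its trimmed mean was 500, and log2(signal + 32) was used, without a brightness filter, so that dim members stayed in the fit. Array medians lay between 171 and 210. Gene symbols came from the platform annotation, in which 10833 probe sets carry 1 symbol, 396 several and 1193 none. Groups were taken from sample titles.

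Group means of all 20 arrays were fitted in limma 3.58.1 (R 4.3.3; lmFit, contrasts.fit, eBayes with an intensity trend), two-sided, with Benjamini-Hochberg adjustment over 12422 probe sets and a threshold of 0.05. Slopes used dose as a number. The fit was also run on simulated data with independent normal noise. That noise carries no differences between arrays, control sets or RNA quality, so the run cannot show how the fit behaves with these. The members, the marker lists and the alternatives were chosen with earlier results of these data known. All probe sets of the members are named. Genes named from the lists are among the 4 of their list with the smallest joint p over the doses. Not all of those genes are given. The macrophage markers Adgre1, Mrc1, Cd68, Cx3cr1, Stab1 and Cd14 were added, after their values were seen, as a check of the label. Likeness is Pearson's r with the score over 20 arrays. Alternatives were quantile normalization, signals as deposited, pseudocounts of 1 and 100, filters at the 40th and 60th percentile, either set of 4 controls, the replicate block, RNA quality and tissue scores as covariates, array weights, no trend, only the groups compared and leaving out each array. Plots used matplotlib 3.10.9.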

Additional observations from a re-analysis of the deposited data

Results flagged for a closer look

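In all, 5 of 60 groups of 4 or 8 arrays held a value far from the rest by Dixon's criterion. Normally distributed values give this in about 1 of 20 groups, and the distribution of these values was not tested. Array 3 at 1.5 µg/kg read 77.0 for C1qb 162276_i_at, below the other 3 arrays at 141 to 153. Control 4 read 260.6 for Laptm5 161819_f_at, below the other controls at 383 to 454. The other 3 were single high values of dim Ptprc probe sets. Array 4 at 1.5 µg/kg read 47.1 for 101048_at (others 7.6 to 12.4). Control 3 read 34.6 for 101297_at (others 1.1 to 8.1), and array 4 at 6 µg/kg read 49.3 for 101298_g_at (others 12.1 to 15.1). No flagged value belongs to C1qa, C1qc, Ctss or Tyrobp.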

How the results depend on the processing

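The number of arrays limits the precision, and the count of members past the adjusted threshold was 0 under every alternative run, except for the slope over dose, where it was 1 (Ctss) against controls 1 to 4 alone and 1 with a filter at the 60th percentile. The score differences ran from 0.13 to 0.29, 0.20 to 0.34 and 0.23 to 0.36 from the low to the high dose, and the difference between the sets of controls moved from 0.14 to 0.26 with a pseudocount of 1. Direction at each dose was kept under every alternative by C1qa, C1qc, Ctss, Tyrobp, both Laptm5 probe sets, C1qb 96020_at and Lyz2 100611_at. Array numbers did not pair the arrays (24 same-numbered pairs correlated at −0.168 to 0.138, median −0.016), and with the replicate block 0 members passed, the counts of members higher at an unadjusted p under 0.05 were 2, 2 and 5 instead of 3, 5 and 7, and the score differences were 0.13, 0.20 and 0.23.

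All reversals fell on C1qb 162276_i_at and the 4 dim probe sets, and the cause was not tested. Against controls 1 to 4 alone, and so by construction with the replicate block, C1qb 162276_i_at differed by −0.25, −0.09 and −0.18. In the same fits Lyz2 162309_at differed by −0.05 at 3 and −0.07 at 6 µg/kg, and Ptprc 101298_g_at by −0.01 at 1.5 µg/kg. At 1.5 µg/kg C1qb 162276_i_at gave −0.03 with quantile normalization and −0.0009 with a pseudocount of 100, Lyz2 162309_at 0.03 against controls 5 to 8, 0.0038 with the actin ratio and 0.0002 with the lung score, Ptprc 101048_at 0.11 against controls 5 to 8 and 0.0039 without the 4 high-ratio arrays, and Ptprc 101298_g_at −0.07 with a pseudocount of 1. At 6 µg/kg Lyz2 162309_at gave −0.03 with quantile normalization, and Ptprc 101298_g_at −0.04 with array weights and −0.04 without the high-ratio arrays. Leaving out 1 array gave ranges at 1.5 µg/kg of −0.09 to 0.19 for C1qb 162276_i_at, −0.13 to 0.02 for Lyz2 162309_at and −0.20 to 0.15 for Ptprc 101298_g_at. At 3 µg/kg they were −0.06 to 0.15 for Lyz2 162309_at and −0.04 to 0.25 for Ptprc 101297_at, and at 6 µg/kg −0.02 to 0.22, −0.01 to 0.12 and −0.13 to 0.17 for C1qb 162276_i_at, Lyz2 162309_at and Ptprc 101298_g_at.

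The count of all probe sets called moved from 8 to between 1 and 136 at 1.5 µg/kg, from 2 to between 1 and 24 at 3 µg/kg and from 5 to between 2 and 130 at 6 µg/kg.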
